A study of Mus musculus with 3 samples.

Results

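Integrins are paired receptors, 1 alpha and 1 beta subunit each, that hold cells to the matrix and, in some pairs, to other cells. Inside the cell, talin and kindlin bind the beta tail and switch the receptor on, and vinculin, paxillin, zyxin and the complex of integrin-linked kinase, PINCH and parvin tie it to actin at focal adhesions. Cells that leave an epithelium, as mesoderm does at gastrulation, trade cell-to-cell contacts for such matrix contacts, and blood vessel precursors depend on fibronectin receptors. The genes described here are the integrin subunits Itga and Itgb and 14 named adaptors, taken by their symbols and not by their values. Of 40 such genes, 36 had a probe set that names a single gene, among 18193 genes on the arrays; Itgad, Itga11, Ptk2 (focal adhesion kinase) and Fermt1 (kindlin-1) were not analysed here.

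RNA was hybridised to Affymetrix arrays. It came from the mouse embryonic stem cell line A2.snail, which switches on Snail, a repressor of epithelial genes, when given doxycycline. All cells were day 3 embryoid bodies, aggregates in which germ layers start to form, grown with serum and DKK1, an inhibitor of Wnt signalling. They were sorted on Flk1, a VEGF receptor of vessel and blood precursors, into untreated Flk1- cells (0 ng/mL doxycycline), and Snail-induced Flk1- and Snail-induced Flk1+ cells of cultures given 250 ng/mL on day 2. Each group was 1 array, so there are 3 arrays, no value has an error between cultures, no test was possible, and the number of arrays limits the precision. The arrays hold no doxycycline-treated cells without the Snail gene and no untreated Flk1+ cells, so Snail and doxycycline cannot be told apart, and neither can Snail and the Flk1 gate in the comparison of Flk1+ with untreated cells.

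Median intensities were 42.4 to 44.6 over 45037 probe sets. All 8 stem cell markers lay above the floor on every array, and their summed intensity was 30763, 33410 and 17217. Here and below, 3 values in a row are those of untreated Flk1-, Snail-induced Flk1- and Snail-induced Flk1+ cells, in that order. The 10 markers of Flk1+ mesoderm and endothelium summed to 801, 1172 and 8623, and the 8 epithelial markers to 16545, 6637 and 1905, in the same order. A floor was set at 25.6 intensity units, the 40th percentile of the values. A gene is called measured where its brightest probe set reaches it on at least 1 array, which 13969 genes and 28 of the 36 genes described here did. Of the 28, 22 reached it on all 3 arrays; Itga1, Itga4, Itga10, Itgal, Itgb4 and Itgb8 did so on 1 or 2, and such genes were bound to differ to some extent. Differences are on the scale log2(intensity + 9.53), which understates those of dim genes; where 1 of a pair of values did not reach the floor, the other value divided by the floor is given as at least that many fold.

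In Snail-induced against untreated Flk1- cells, the largest differences were in alpha subunits: Itga1 and Itga4 were higher, and no adaptor was 2-fold apart. Of the 28 measured genes, 3 (10.7%) were at least 2-fold higher and 1 (3.57%) was at least 2-fold lower, where 2.95% of all measured genes were higher and 2.03% lower; their median log2 difference was 0.27 against 0.04 over all genes. All 4 of these genes, Itga1, Itga4, Itgb4 and Itga10, lay under the floor on at least 1 of the arrays compared, so their share is no support for a shift of the group. In Snail-induced Flk1+ against Snail-induced Flk1- cells, Itga1, Itgav, Tln1 and Itga10 were higher and Itgb8 was lower, 4 (14.3%) and 1 (3.57%) against 4.85% and 4.89% of all genes, with a median of 0.42 against 0.00053. In Snail-induced Flk1+ against untreated Flk1- cells, 11 (39.3%) were higher and 2 (7.14%) lower against 8.10% and 6.41% of all genes, with a median of 0.79 against 0.01. That comparison is the sum of the other 2 on the log scale and adds no evidence to them. Between the induced populations, Itga10 and Itgb8 lay under the floor on 1 of the arrays compared. In Flk1+ against untreated cells, Itga1, Itga4, Itgb4 and Itgb8 did so. Such genes make up part of both shares, which are therefore no test of a shift of the group. The counts depend on the probe set taken: averaging all probe sets of a gene gave 2 higher in place of 4 and 4 in place of 11. A floor at the 60th percentile gave 1 higher and 0 lower in the first comparison. The shares of all genes under these 2 settings are not given here. In sorted populations, a difference in the mix of cells and a difference in RNA per cell cannot be told apart.

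**Figure D1:**
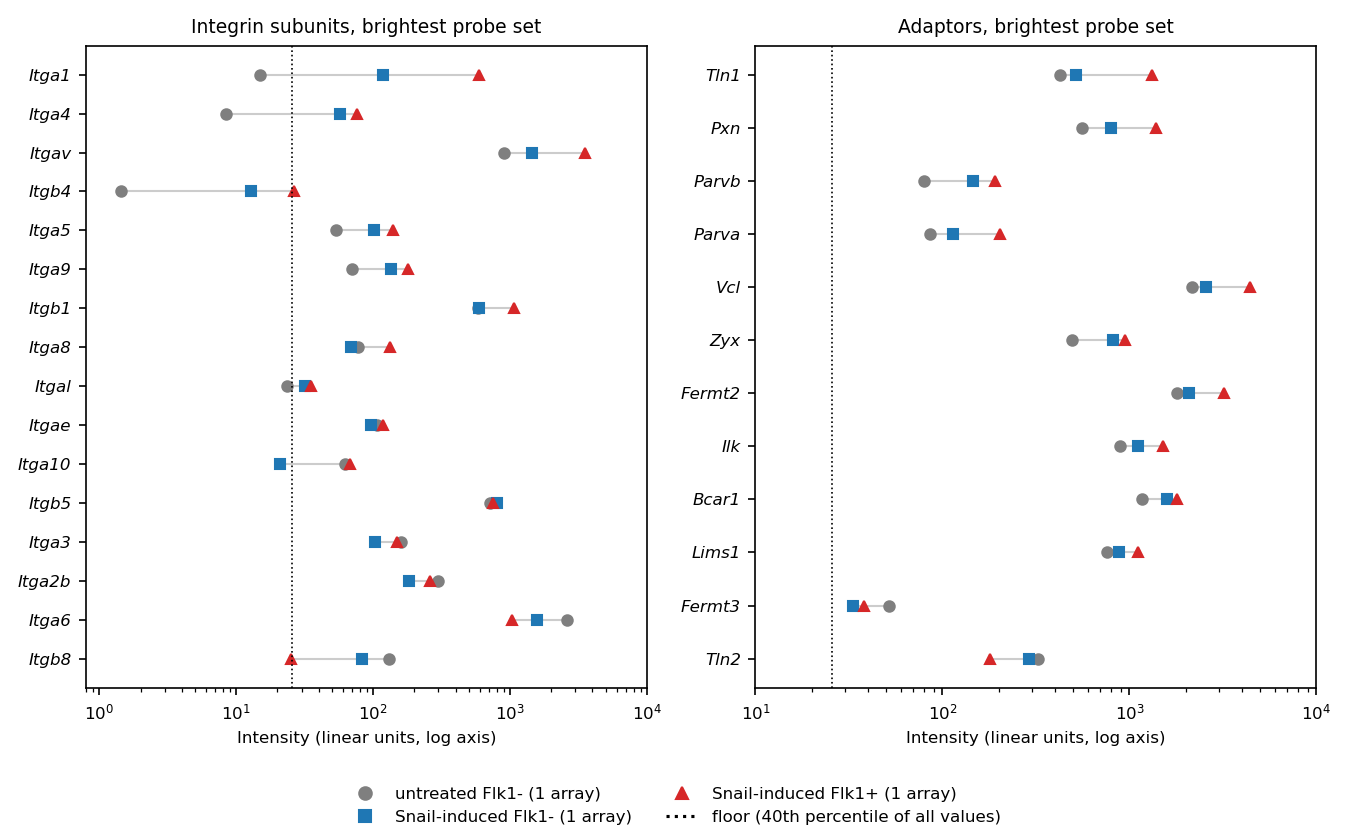
Intensity of the brightest probe set of each of the 28 measured genes on the 3 arrays, on a log axis, with integrin subunits on the left and adaptors on the right, ordered by the difference between Snail-induced Flk1+ and untreated Flk1- cells; the dotted line is the floor of 25.6. Itga1 spans the widest range among genes that reach well past the floor, from 14.9 to 594, while no adaptor lies under the floor on any array.

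**Figure D2:**
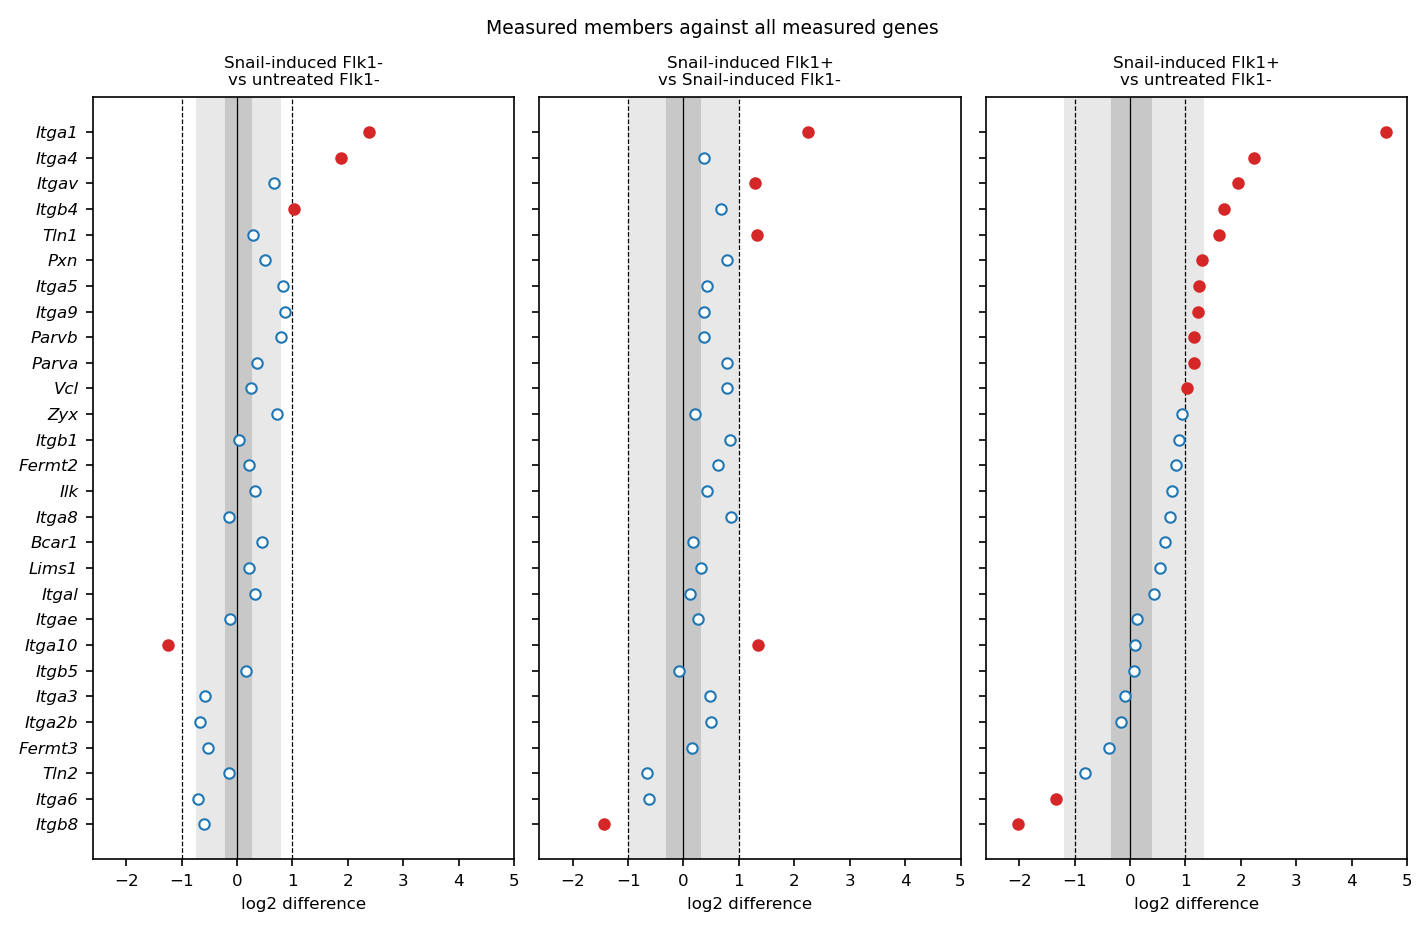
log2 differences of the 28 measured genes in the 3 comparisons, filled where at least 2-fold (dashed lines), over the range of all 13969 measured genes (light grey, 5th to 95th percentile; dark grey, 25th to 75th). In the right panel 11 genes lie past the upper line and 2, Itga6 and Itgb8, past the lower one.

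The collagen receptor subunit Itga1, which pairs with the beta-1 subunit, gave 14.9, 118 and 594. It was under the floor in untreated cells, at least 4.61-fold higher with induction, and again 4.74-fold higher in the Flk1+ than in the Flk1- cells of the induced culture. Between the Flk1+ and the untreated array the difference was at least 23.2-fold. Its second measured probe set gave 7.76, 11.1 and 46.5, above the floor in Flk1+ cells alone, with a log2 difference of 0.26 for induction and 1.44 for Flk1+ against Flk1-. The size of the step with induction therefore rests on 1 probe set.

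The 2 other collagen receptor subunits on the array were not like it. Itga10 gave 62.8, 21.1 and 67.8, low only in Snail-induced Flk1- cells, where it was at least 2.46-fold under the untreated and at least 2.65-fold under the Flk1+ value; it has 1 probe set, and the low value alone makes both calls. Itga2 was under the floor throughout, at 8.11, 3.06 and 9.11.

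Laminin receptor subunits were lower or close to level. Itga6, which pairs with the beta-1 or beta-4 subunit and binds the laminins of epithelial basement membranes, gave 2592, 1584 and 1028. It was 1.63-fold lower with induction, 1.54-fold lower in Flk1+ than in Flk1- cells, and 2.51-fold lower from end to end. A second probe set gave 1053, 660 and 440, in the same order. Itga3, another receptor of these laminins, gave 159, 104 and 149, within 2-fold in every comparison, and Itga7, a laminin receptor of muscle, was under the floor with 20.9, 9.05 and 2.5.

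Itgb4, which pairs with Itga6 in hemidesmosomes, gave 1.43, 12.9 and 26.2. It passed the floor by a small margin on the Flk1+ array alone, so it could enter only as a higher gene. Its first 2 values lie under the floor, the Flk1+ value is at least 1.03-fold above them, and both of its 2-fold calls rest on unmeasured levels. Just outside, Itgam reached 25.3 at most and was not measured.

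Of the 6 alpha subunits of receptors for fibronectin and other ligands with RGD or related sequences, Itga4 was at least 2-fold higher with induction, Itgav between the induced populations, and Itga4, Itga5, Itga9 and Itgav in Flk1+ against untreated cells. Itgav, the alpha-v subunit shared by the vitronectin receptors and by receptors that free TGF-beta from its latent complex, gave 903, 1437 and 3516, all far above the floor. It was 1.58-fold higher with induction, 2.44-fold higher in Flk1+ than in Flk1- cells and 3.86-fold higher from end to end. A second probe set gave 37.6, 68.9 and 119, in the same order of arrays, and 3 more stayed under the floor.

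Itga4, the partner of beta-1 in the receptor for fibronectin and VCAM-1, gave 8.49, 57 and 76. It was at least 2.23-fold higher in Snail-induced than in untreated Flk1- cells, and at 1.29-fold the 2 induced populations were close. Its 4 other probe sets were under the floor on every array, so 1 probe set carries this call as well.

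Itga5, the alpha subunit of the main fibronectin receptor, gave 53.5, 102 and 139, and the Flk1+ value was 2.36-fold above the untreated one. Its other measured probe sets disagreed: one gave 23.3, 21.8 and 56.8, and the other 49.4, 33.8 and 47.3. When probe sets with a suffix for several transcripts were left out, the log2 difference of Itga5 between Flk1+ and untreated cells changed from 1.24 to -0.05, so its direction depends on the probe set.

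Itga9, a receptor subunit for tenascin and osteopontin that is needed in lymphatic valves, gave 70.4, 136 and 178, and a second probe set 38.0, 81.0 and 123. Both rank the arrays alike, with 1.82-fold for induction and 2.35-fold from end to end by the brightest. Itga8, a nephronectin and fibronectin receptor subunit, gave 77.2, 69.4 and 133, higher in the Flk1+ array but within 2-fold. Its second measured probe set gave 13.3, 17.9 and 41.45, above the floor in Flk1+ cells alone. There the log2 difference was 1.16 between Flk1+ and untreated cells, past 2-fold. With induction the 2 probe sets differed in sign, at -0.14 and 0.26. Itga2b, the platelet fibrinogen receptor subunit that also marks early blood precursors, gave 295, 182 and 262, within 2-fold. Of the 8 megakaryocyte and platelet markers with a probe set, 3, 1 and 5 reached the floor, and none was at 0. Their summed intensity was 182, 154 and 461, of which Clec1b, the only measured marker past 2-fold, gave 16.8, 19.6 and 249. The part of these markers in the Itga2b value was not tested.

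Itgb1, the common partner of most of these alpha subunits, gave 579, 597 and 1071. The 2 Flk1- arrays were level (1.03-fold) and the Flk1+ value was 1.78-fold above the induced Flk1- value, short of 2-fold. Another probe set repeated this pattern at 555, 573 and 1064, and a dimmer one gave 129, 131 and 232.

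Besides Itgb1, Itgav pairs with 4 other beta subunits, and none of them was 2-fold higher in any comparison. Itgb5, a vitronectin receptor subunit, gave 714, 803 and 756, and its 3 other probe sets stayed within a similar narrow band (445, 490 and 398; 578, 608 and 590; 633, 798 and 739). Itgb8, whose pairing with Itgav binds latent TGF-beta and which lacks the usual talin-binding tail, gave 131, 83.6 and 25.0. It was at least 3.27-fold lower in Flk1+ than in Flk1- cells of the induced culture and at least 5.14-fold lower than in untreated cells, on a single probe set. Itgb3 (at most 7.39) and Itgb6 (at most 15.9), which complete these 4, were under the floor on every array. Latent TGF-beta genes themselves were higher in Flk1+ cells: Tgfb1 gave 49.9, 39.8 and 168 and Tgfb2 gave 46.2, 53.3 and 177.

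Leukocyte integrins gave little signal. Itgam, Itgax, Itgb2 and Itgb7 were under the floor on every array, as was the epithelial subunit Itgb6. Itgal gave 23.6, 31.8 and 35.0, close to the floor, and Itgae, the subunit that binds E-cadherin, gave 107, 97.3 and 118; its second measured probe set gave 55.0, 41.0 and 25.1, lowest where the other is highest. Without a measured Itgb2 or Itgb7, the obligate partners of these alpha subunits, the data hold no measured leukocyte pair. Of 10 leukocyte markers, 8, 7 and 8 reached the floor, their summed intensity was 714, 637 and 877, and none was at 0. On the log2 scale, 1 of the 8 measured was higher with induction and 7 were lower. Between Flk1+ and Flk1- cells of the induced culture 6 were higher and 2 lower, and between Flk1+ and untreated cells 4 and 4. Of all 13969 measured genes, 7665 were higher and 6302 lower with induction. Between the induced populations 6995 were higher and 6974 lower, and between Flk1+ and untreated cells 7171 and 6796. Of the 8 markers, 6 were within 2-fold with induction, 6 between the induced populations and 7 in Flk1+ against untreated cells. Laptm5, the 1 higher with induction, gave 54.3, 170 and 350. The part of these markers in the values of Itgal and Itgae was not tested.

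**Figure D3:**
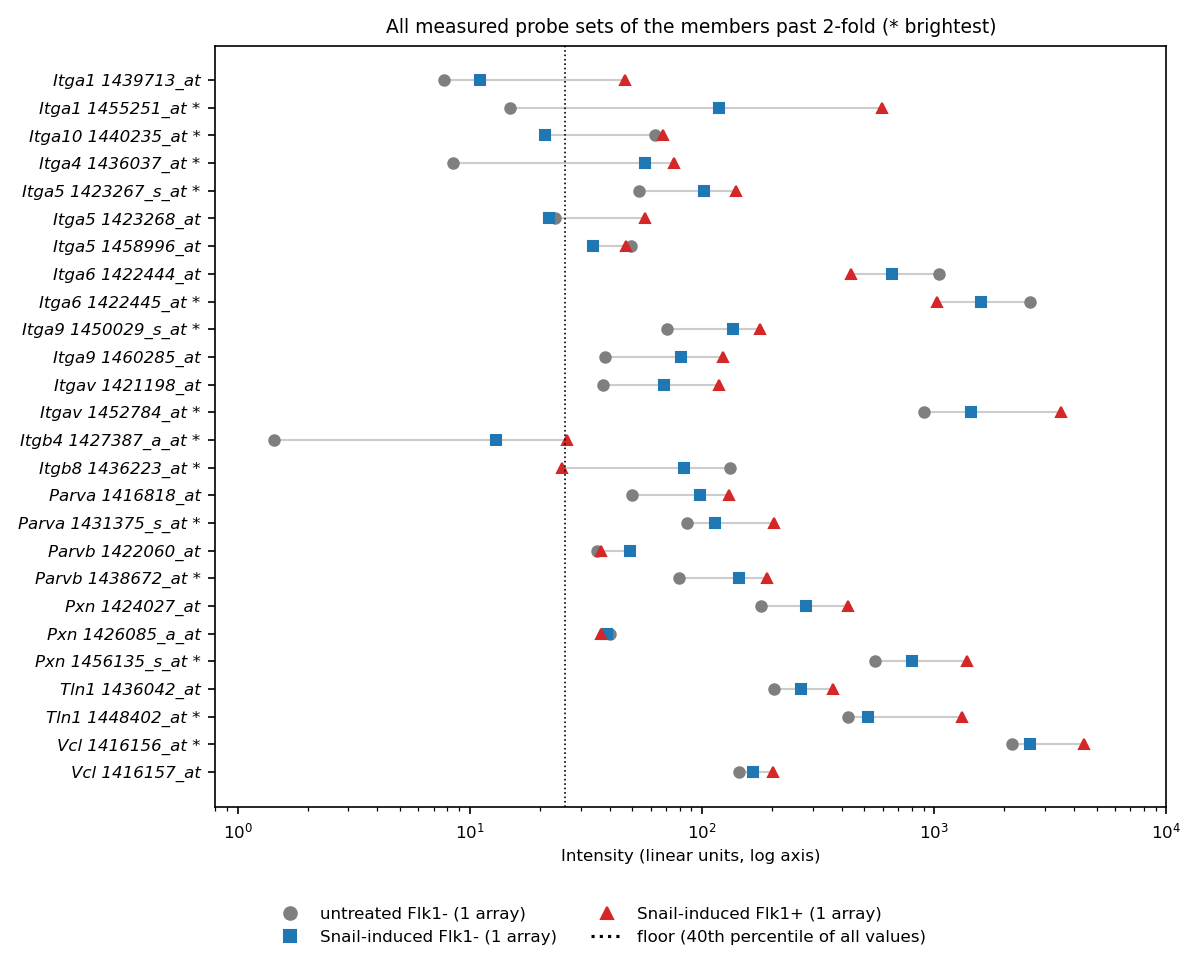
Intensity on the 3 arrays, on a log axis, of every measured probe set of the 14 genes that were at least 2-fold apart in any comparison; an asterisk marks the brightest. The probe sets of Itga6, Itga9, Itgav and Parva keep 1 order of arrays, while those of Itga5, Parvb and Pxn differ from each other.

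Of the talin and kindlin genes, Tln1 alone was past 2-fold in any comparison by the brightest probe set. Tln1, the widely expressed talin that links the beta tail to actin, gave 426, 520 and 1321, 2.51-fold higher in Flk1+ than in Flk1- cells of the induced culture and 3.06-fold higher than in untreated cells. Tln2, its paralog of heart, brain and muscle, gave 323, 292 and 180 and so was lower in Flk1+ cells, by 1.59-fold, within the 2-fold limit. Another Tln2 probe set gave 45.6, 35.5 and 37.5, level between the induced populations. The second measured Tln1 probe set gave 204, 267 and 368, the same order of arrays with smaller steps. Fermt2 (kindlin-2), the kindlin of most adherent cells, gave 1795, 2091 and 3206, and Fermt3 (kindlin-3), that of blood cells, gave 52.0, 33.1 and 37.8.

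Of the integrin-linked kinase complex, Ilk and Lims1 were within 2-fold in every comparison and the parvins Parva and Parvb were past it in Flk1+ against untreated cells alone. Ilk, the pseudokinase at its centre, gave 886, 1114 and 1504, and Lims1 (PINCH-1) gave 759, 883 and 1108. Another Lims1 probe set gave 424, 541 and 499, slightly lower in Flk1+ than in Flk1- cells of the induced culture. Parva (alpha-parvin), an actin-binding member, gave 85.9, 113 and 203, and a second probe set 50.2, 98.0 and 131. Parvb (beta-parvin) gave 79.9, 145 and 190. Both parvins were 2.23-fold higher in Flk1+ than in untreated cells, but the second Parvb probe set gave 35.4, 48.8 and 36.7, which is level between those arrays.

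Among linkers and scaffolds, Vcl (vinculin), which reinforces talin's hold on actin, gave 2163, 2573 and 4433 and was 2.04-fold higher in Flk1+ than in untreated cells. Quantile normalisation (0.998 on the log2 scale), centring (0.96) or the mean of all probe sets (0.75) puts it below 2-fold, and the second Vcl probe set gave 144, 165 and 203. Pxn (paxillin), the scaffold that recruits focal adhesion kinase, gave 558, 800 and 1379, 2.45-fold higher from end to end; another probe set gave 180, 280 and 427, while 1 more stayed between 36.7 and 40.04. Zyx (zyxin), found at mature, tensed adhesions, gave 491, 817 and 946, and Bcar1 (p130Cas), a substrate of focal adhesion kinase and Src, gave 1162, 1597 and 1800. Both were within 2-fold.

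Of the 12 adaptors, all measured, 5 (41.7%) were at least 2-fold higher and 0 lower in Flk1+ against untreated cells, against 8.10% and 6.41% of all measured genes, and the other 7 lay within 2-fold. Their log2 differences ran from -0.81 for Tln2 to 1.61 for Tln1, with a median of 0.88. Of the 5 higher adaptors, Vcl fell short of 2-fold in 3 of 7 alternative ways of processing, and Pxn and Parvb in 1 of 7 each. Those of the 7 that only move the floor could not change a difference. Of 16 measured integrin subunits, 6 (37.5%) were higher and 2 (12.5%) lower, over a wider range, from -2.03 for Itgb8 to 4.62 for Itga1, with a median of 0.57. Among the subunits called, Itga1, Itga4, Itgb4 and Itgb8 lay under the floor on 1 of the arrays compared, so part of these shares was bound to differ. Of the 13 genes past 2-fold in this comparison, 10 had another measured probe set; in 8 of them all such probe sets had the same sign, and in 7 at least 1 was itself past 2-fold. These read the same RNA on the same arrays and do not stand in for replicates.

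Promoter sequences were read because Snail binds the letters CAGGTG and because the CArG box, the site of serum response factor, lies in promoters of adhesion genes such as Vcl. RefSeq (GRCm38.p6) gave windows of 250 bases before a start site for 26 of the 36 genes, 32 windows in all. CAGGTG, searched on both strands (so also as CACCTG), was in 6 of the 32 windows, and in 17.2% of all 32851 windows of this length. The 6 genes were Itgb8, Itgb5, Itgb6, Itga3, Itga9 and Fermt3. The CArG box was in 3 windows, of Vcl, Fermt2 and Itgb6, and in 1.47% of all windows; in no window did the 2 motifs overlap. With induction, all 5 measured CAGGTG genes were within 2-fold, Itgb8 at -0.60 and Itga9 at 0.87 on the log2 scale. Itgb8 was lower in Flk1+ cells than in either Flk1- population, and Itga9 was higher in Flk1+ than in untreated cells. Itgb5, Itga3 and Fermt3 were within 2-fold in every comparison, and Itgb6 was not measured. The windows of Itga9 and of Itgb6 with matches lie wholly inside the gene's RefSeq span, that of Fermt2 with 245 of its 250 bases and that of Itga3 with 130. The Vcl window has 15 bases inside the span. These 15 bases are left out of its sequence below but counted in the distance given for its box. A match is a string of letters and shows no binding. The 4 windows below are shown because they stand for these cases, each 5′ to 3′ on the gene's strand and ending before the gene. Itgb8, lower in Flk1+ cells, and Itgb5, level, both have CACCTG in capitals, 62 and 109 bases before the start. Vcl has its CArG box in capitals, 227 bases before the start. Itga1 had the largest difference and has neither motif. These 4 windows lie on the minus strand at chr12:119238277-119238526 (Itgb8), the plus strand at chr16:33829415-33829664 (Itgb5), the plus strand at chr14:20929148-20929382 (Vcl) and the minus strand at chr13:115101965-115102214 (Itga1).
Itgb8: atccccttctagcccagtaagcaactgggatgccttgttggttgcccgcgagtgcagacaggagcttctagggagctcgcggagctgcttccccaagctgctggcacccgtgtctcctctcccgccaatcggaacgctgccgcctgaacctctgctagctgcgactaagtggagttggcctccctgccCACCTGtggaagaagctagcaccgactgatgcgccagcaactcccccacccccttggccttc
Itgb5: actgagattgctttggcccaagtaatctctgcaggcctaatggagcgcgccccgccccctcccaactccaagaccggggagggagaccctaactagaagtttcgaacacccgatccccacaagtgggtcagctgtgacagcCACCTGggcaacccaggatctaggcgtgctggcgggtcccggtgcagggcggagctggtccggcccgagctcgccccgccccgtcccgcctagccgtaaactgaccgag
Vcl: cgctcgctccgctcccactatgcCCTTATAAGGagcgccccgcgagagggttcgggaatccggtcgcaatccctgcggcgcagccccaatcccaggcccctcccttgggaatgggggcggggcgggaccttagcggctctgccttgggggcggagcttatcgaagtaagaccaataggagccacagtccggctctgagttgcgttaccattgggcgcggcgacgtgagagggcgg
Itga1: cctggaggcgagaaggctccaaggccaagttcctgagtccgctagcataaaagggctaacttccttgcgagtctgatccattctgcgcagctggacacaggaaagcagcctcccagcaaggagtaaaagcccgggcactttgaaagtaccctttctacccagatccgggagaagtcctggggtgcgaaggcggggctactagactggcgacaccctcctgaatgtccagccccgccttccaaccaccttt

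Ligand genes were described from a list of 31 textbook integrin ligands and counter-receptors, 26 of them measured. With induction 4 (15.4%) were at least 2-fold higher and 2 (7.69%) lower among Flk1- cells; in Flk1+ against Flk1- cells 10 (38.5%) were higher and 3 (11.5%) lower. The shares of all measured genes are 2.95% and 2.03%, and 4.85% and 4.89%, in the same order. Of the genes higher with induction, Fbln5 and Lama4 lay under the floor in untreated cells. Of those higher in Flk1+ cells, Icam2 and Tnc lay under it in Snail-induced Flk1- cells. Such genes were bound to differ to some extent, so the shares are no test of a shift of the list. Among laminin alpha chains, 2 went in opposite directions. Lama5, a chain of the epithelial laminin that Itga6 and Itga3 receptors bind, gave 309, 143 and 58.3, 2.09-fold lower with induction and 2.24-fold lower in Flk1+ cells. Lama4, the chain of mesenchymal and vessel laminin, gave 12.2, 75.6 and 180, at least 2.96-fold higher with induction and 2.22-fold higher in Flk1+ cells. The shared chains Lamb1 (2278, 2351 and 2582) and Lamc1 (661, 592 and 576) were level.

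Matrix genes differed among themselves. Edil3, a secreted ligand of alpha-v integrins made by early endothelium, gave 27.2, 166 and 669, 4.78-fold higher with induction and 3.87-fold higher in Flk1+ cells. Fn1 (fibronectin) gave 1367, 1640 and 6394, level between the Flk1- arrays and high in the Flk1+ array. Nid1 (nidogen-1), a basement membrane linker, gave 306, 676 and 2485, and the type IV collagen chains Col4a1 and Col4a2 gave 1023, 1423 and 7178, and 470, 573 and 3004; type IV collagen is a ligand of the Itga1 receptor. Some other ligands of RGD-binding receptors were within 2-fold on the log2 scale with the offset. Vtn (vitronectin) gave 28.3, 25.9 and 11.6, under the floor in Flk1+ cells, so the size of its difference there is not known. Npnt (nephronectin) gave 89.5, 52.2 and 41.0, 1.96-fold lower in Flk1+ than in untreated cells. Thbs1 (thrombospondin-1) gave 59.0, 74.2 and 56.6, and Mfge8 881, 1137 and 1350. Tnc (tenascin-C) gave 29.1, 22.5 and 70.2, at least 2.75-fold higher in Flk1+ than in Snail-induced Flk1- cells. Fbln5 (fibulin-5) differed in giving its highest value in Snail-induced Flk1- cells, at 9.62, 66.5 and 32.6.

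Counter-receptors on other cells went both ways. Icam2, of endothelium, gave 3.73, 10.1 and 215, at least 8.42-fold higher in Flk1+ cells. Cdh1 (E-cadherin), the partner of the Itgae receptor, gave 6338, 3086 and 624, and Jam2, a junction protein that also binds integrins, gave 204, 320 and 68.3. Vcam1 was under the floor. The feeder fibroblast markers, which also carry matrix genes, summed to 922, 1631 and 1481; 6 of the 10 reached the floor on each array, none was at 0, and their part in the ligand values was not tested.

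**Figure D4:**
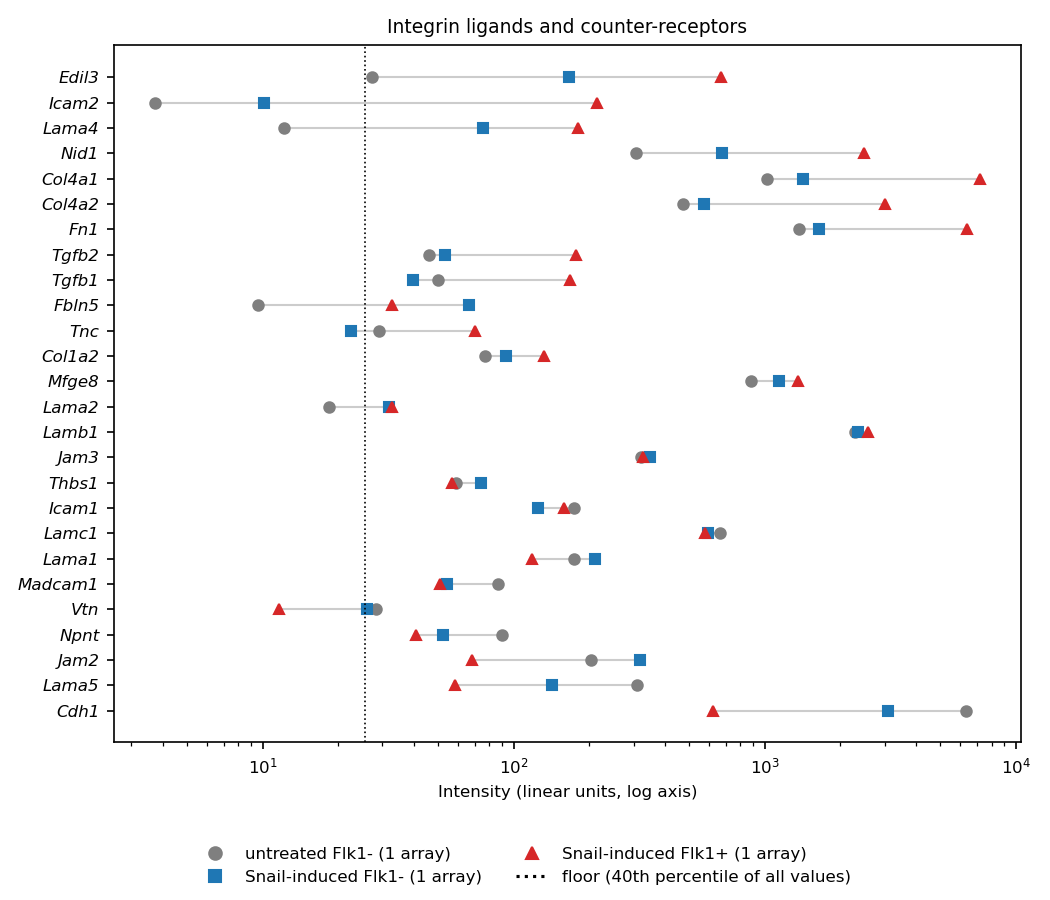
Intensity on the 3 arrays, on a log axis, of the 26 measured integrin ligand and counter-receptor genes, ordered by the difference between Snail-induced Flk1+ and untreated Flk1- cells; the dotted line is the floor. Edil3, Lama4, Nid1 and Fn1 are highest in the Flk1+ array, and Lama5 and Cdh1 lowest there.

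Of 28 measured genes for other structural proteins of focal adhesions, 1 was higher and 1 lower with induction (3.57% each, near the 2.95% and 2.03% of all genes), and 4 (14.3%) were higher and 0 lower in Flk1+ against Flk1- cells (4.85% and 4.89% of all genes). Tgfb1i1 (Hic-5), the paralog of paxillin, gave 68.6, 247 and 669, 3.28-fold higher with induction and 2.64-fold higher in Flk1+ cells. Tes (testin) and Lpp, LIM proteins that join zyxin and VASP at adhesions, gave 218, 281 and 770, and 565, 858 and 1823, both past 2-fold between the induced populations. Sorbs2, a vinculin-binding adaptor, gave 43.2, 10.7 and 46.0, low in the Snail-induced Flk1- array alone, as Itga10 was. That value lay under the floor, and the calls of Sorbs2 in both comparisons rest on it. Nexn (nexilin), an actin binder of muscle, was the gene lower in Flk1+ than in untreated cells, at 89.0, 53.7 and 30.6. The bundlers Actn1 (3372, 3705 and 4223) and Actn4 (1857, 1693 and 1680) were level.

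Among 28 measured genes of adhesion kinases, phosphatases and the Rac pathway, 2 (7.14%) were higher and 0 lower with induction, against 2.95% and 2.03% of all genes. In Flk1+ against Flk1- cells 3 (10.7%) were higher and 2 (7.14%) lower, against 4.85% and 4.89%, a gap of 1 or 2 genes. The genes higher with induction, Rhoj and Cass4, lay under the floor in untreated cells. Those lower in Flk1+ cells, Ptk2b and Cass4, lay under it there. Such genes were bound to differ to some extent, so these shares are no test of a shift of the list. Src itself was level at 199, 201 and 191, while its relatives Fyn (479, 514 and 1336) and Yes1 (498, 549 and 1395) were 2.57-fold and 2.52-fold higher in Flk1+ than in Flk1- cells. Ptk2b (PYK2), the paralog of focal adhesion kinase, gave 92.7, 80.5 and 3.89, at least 3.15-fold lower in Flk1+ cells. Rhoj, a small GTPase of endothelial cells that speeds the turnover of focal adhesions, gave 6.54, 35.1 and 1204, 27.2-fold higher in Flk1+ than in Flk1- cells. The Bcar1 relative Cass4 gave 20.1, 53.6 and 10.9, at least 2.10-fold higher in Snail-induced Flk1- cells than in either of the others.

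Regulators of integrin activity and tetraspanins, which hold integrins in membrane clusters, had 0 of 24 genes past 2-fold with induction, against 2.95% higher and 2.03% lower of all genes. In Flk1+ against Flk1- cells 1 (4.17%) was higher and 2 (8.33%) lower, near the 4.85% and 4.89% of all genes. The tetraspanin genes went in different directions. Tspan8 gave 17.9, 22.0 and 410, at least 16.0-fold higher, Cd9 gave 552, 469 and 118, 3.77-fold lower, and Cd151, the laminin receptor partner, gave 1532, 1715 and 2577, within 2-fold. Dok1 and Dok2, adaptors that compete with talin for the beta tail, gave 135, 96.8 and 51.0, and 85.9, 57.8 and 20.2, both past 2-fold lower in Flk1+ than in untreated cells. Rap1a and Rap1b, the GTPases that bring talin to the membrane, stayed within 2-fold at 2159, 2362 and 3937, and 3676, 3997 and 5297.

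**Figure D5:**
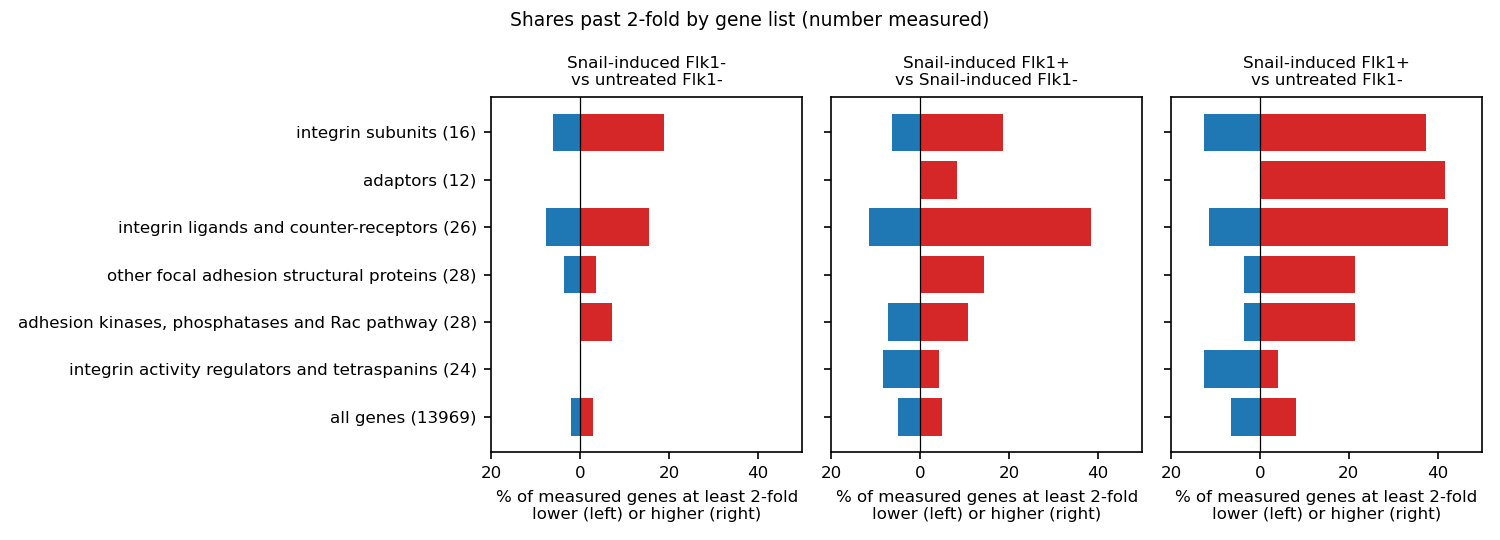
Percentage of measured genes at least 2-fold higher (right, red) or lower (left, blue) in the 3 comparisons, for integrin subunits, adaptors, the 4 other lists and all 13969 genes; the number measured stands in brackets. Ligand genes show the longest bar between the induced populations (38.5% higher), and no adaptor is past 2-fold in the left panel.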

How the data were processed

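RNA of 3 sorted cell populations, 1 array each, was measured. Per the labels' protocols, RNA was purified on columns and turned into biotinylated cRNA in the standard Affymetrix way. The authors deposited linear-scale intensities, 1 for each probe set on each array; the summary and scaling steps are not given in the labels or file used here. Columns were used as deposited. Of 45037 probe sets, 34945 had 1 symbol in the platform annotation, 932 several and 9160 none; Entrez IDs gave the current symbols in RefSeq's GRCm38.p6 table. The probe set with the highest mean log2(intensity + 9.53) stood for a gene; the offset is the values' 20th percentile. A gene was measured at or above the 40th percentile (25.6) on at least 1 array. A fold is the log2 difference turned back to a ratio, or a lower bound from the floor where 1 value did not reach it. With 1 array a group there was no test, and calls are differences of at least 2-fold. The counting step was tested on simulated data.

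The members and the gene lists were chosen with earlier results of these data known. Values are given for each member past 2-fold in any comparison, each whose probe sets differ in sign where the brightest is past 2-fold, and the 10 brightest, with partners. Of each other list, up to 4 genes with the largest difference and 2 in the other direction were chosen, of which the text names part. Other genes named, among them Src, Actn1, Actn4, Lamb1, Lamc1, Cd151, Rap1a and Rap1b, were chosen after their values were seen. Promoters came from RefSeq, GRCm38.p6. Alternatives were quantile normalisation, centring, the mean of all probe sets, no probe sets with the suffixes for several transcripts, no floor or a higher one, no offset, and other fold limits. Python 3.11.15, numpy 2.4.6 and pandas 2.3.3 were used.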

Additional observations from a re-analysis of the deposited data

How the results depend on the processing

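No paired analysis was possible because each group has 1 array, and no array could be left out. Of 22 calls of single genes past 2-fold, the alternatives that measured them gave 144 values. Of these, 132 stayed past 2-fold in the same direction, 11 fell short of it and 1 turned. The 1 that turned was Itga5 in Snail-induced Flk1+ against untreated Flk1- cells, at -0.054 without probe sets for several transcripts. Values with no floor or a higher one could only stay the same, as a floor sets which genes are measured and not their differences. Nor could a gene with 1 probe set change with the mean of all probe sets. The 132 therefore overstate how far the calls were put to a test. Averaging all probe sets of a gene gave 2 higher genes between the induced populations in place of 4, and 4 in place of 11 in Flk1+ against untreated cells, where the median was 0.58 in place of 0.79; that median was 0.65 with quantile normalisation and 0.55 with no floor. A floor at the 60th percentile gave 1 higher and 0 lower with induction, as fewer dim genes were tested. A 3-fold limit gave 0 lower with induction, 1 higher and 0 lower between the induced populations, and 5 higher and 1 lower in Flk1+ against untreated cells. A 1.5-fold limit gave 8 higher and 4 lower, 11 higher and 3 lower, and 17 higher, in that order of comparisons. The shares of all genes under these other settings are not given here, so these counts show no shift of the group. The other counts stayed within 1.5 times and the other medians within 0.1 of the values given.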
